A study of Mus musculus with 6 samples.

Results

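The contactins and contactin-associated proteins are a family of neural cell adhesion genes, and 9 of them were listed by name: Cntn1, Cntn2, Cntn3, Cntn4, Cntn5, Cntn6, Cntnap1, Cntnap2 and Cntnap4. They are 9 of the 32286 genes in the count tables, and no threshold on a measured value picked them, although earlier results of these data were known when the family was chosen. Contactins are immunoglobulin-domain proteins held to the outer membrane by a lipid anchor, so they have no part inside the cell and signal through partners in the same or the facing membrane. The contactin-associated proteins, also called Caspr proteins, span the membrane, resemble neurexins and serve as such partners. On myelinated axons Cntn1 and Cntnap1 build the paranodal junction and Cntn2 and Cntnap2 the neighboring juxtaparanode, where potassium channels cluster. The remaining members are best known for sorting axons and synapses of particular neuron types.

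Nuclei came from whole cerebella of 12 week old mice on a C57BL/6 background. The 3 SCA1 mice carried the Pcp2-ATXN1[82Q] transgene, in which the Pcp2 promoter drives human ATXN1 with an expanded CAG repeat in Purkinje cells (PCs) and is not meant to be active in the other cell types. The 3 WT mice were littermates without the transgene. Single nucleus RNA was counted as unique molecular identifiers (UMIs), and each nucleus carried a cell type label that the authors made with SingleR. The study assigned cell types only where this label and the Seurat cluster agreed, whereas the label alone was used here.

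The 6 libraries held 3354 to 10897 nuclei each and 45473 in all, with 18916647 to 98366627 UMIs per library and a median of 2246.5 to 7253 UMIs per nucleus. WT mouse 2 was the shallowest. Between 7 and 44 barcodes were shared by any pair of libraries, 254 barcodes in all. Counts were summed per mouse and label for the 13 labels with at least 10 nuclei in every mouse, which covered 99.1% of nuclei. Levels are UMI counts-per-million (CPM), scaled with edgeR's TMM factors among the 6 mice of a label. The SD is over mice. Nuclei of 1 mouse are not replicates.

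The labels were named here by their leading genes, and most carried their defining markers. Granule neurons (37532 nuclei) had Gabra6 at 741, PCs (292 nuclei) Car8 at 2546 and Itpr1 at 10554, Bergmann glia (BG, 1243 nuclei) Slc1a3 at 3676, velate astrocytes (VA, 1014 nuclei) Aqp4 at 1151, and oligodendrocytes (OL, 1384 nuclei) Mog at 731 CPM. Of the inhibitory labels, Nefh interneurons (1224 nuclei) had the molecular layer interneuron gene Sorcs3 at 2065 and Cadm1 interneurons (289 nuclei) had Nxph1 at 4679. Rab3b interneurons (458 nuclei) held both, at 1750 and 859, and in no cluster were they the most frequent label. Chrm2 interneurons (263 nuclei) mixed Nxph1, at 2645, with Slc6a5, at 44.5. Lgi2 interneurons (240 nuclei) carried the Golgi cell genes Lgi2, at 458, Slc6a5, at 118, and Grm2, at 78.9. The label was the most frequent of its cluster in only 38 Chrm2 and 115 Lgi2 nuclei, against 273 PC nuclei. The excitatory labels with Slc17a6 in their names are called Nrgn neurons (757 nuclei) and Sln neurons (104 nuclei), and the latter had the unipolar brush cell gene Eomes at 99.5. Dcn cells (242 nuclei), which the authors' label places with the endothelium, had the fibroblast genes Dcn at 373, Col1a2 at 346 and Slc6a13 at 409 and, of the endothelial genes, Flt1 at 95.1, its highest label, but Cldn5 at 1.88 and Pecam1 at 2.28, no higher than in other labels. Their cell type is left unnamed.

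In the mouse genome (build GRCm38, GENCODE annotation) 7 of the 9 members are long genes. Cntnap2 lies at chr6:45059357-47304213 on the forward strand and spans 2245 kb, Cntn5 at chr9:9660891-10904775 on the reverse strand, 1244 kb, and Cntn4 at chr6:105677660-106699310 on the forward strand, 1022 kb. Cntn3 (410 kb, chr6:102162655-102573101, reverse), Cntn6 (371 kb, chr6:104492790-104863406, forward), Cntnap4 (313 kb, chr8:112570043-112882717, forward) and Cntn1 (291 kb, chr15:92051165-92341967, forward) are shorter. Cntn2 (chr1:132509427-132543256, reverse) spans 33.8 kb and Cntnap1 (chr11:101170523-101190724, forward) 20.2 kb. Cntn3, Cntn6 and Cntn4 lie in that order along chromosome 6. The authors counted introns as well as exons, so most of a long gene can yield UMIs.

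The promoters of Cntn2 and Cntn5 are shown because these members alone had a highest cell type in which all 6 mice lay above all 6 mice of the next, and because Cntn5 also separated SCA1 from WT PCs. The windows run from 250 bases before to 50 after the transcription start (RefSeq, GRCm38.p6), 5′ to 3′ on the gene's own strand, at chr1:132542891-132543190 for Cntn2 and chr9:10904726-10905025 for the first of the 2 listed Cntn5 starts. The Cntn2 window lies wholly inside the GENCODE span given above, which begins at 132543256 on this strand. RefSeq and GENCODE thus place the start of Cntn2 differently. Capitals would mark a match.
Cntn2 promoter: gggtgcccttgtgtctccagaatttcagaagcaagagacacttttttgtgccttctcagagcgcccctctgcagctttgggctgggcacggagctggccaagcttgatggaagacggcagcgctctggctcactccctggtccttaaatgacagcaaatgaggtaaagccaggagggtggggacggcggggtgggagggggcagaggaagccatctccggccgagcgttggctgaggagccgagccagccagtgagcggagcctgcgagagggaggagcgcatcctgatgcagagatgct
Cntn5 promoter: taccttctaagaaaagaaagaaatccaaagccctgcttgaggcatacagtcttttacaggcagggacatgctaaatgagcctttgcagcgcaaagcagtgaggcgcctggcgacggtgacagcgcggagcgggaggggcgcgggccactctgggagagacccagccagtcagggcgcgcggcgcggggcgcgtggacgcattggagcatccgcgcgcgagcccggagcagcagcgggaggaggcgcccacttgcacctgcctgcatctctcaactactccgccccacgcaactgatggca
The motif searched was that of capicua, a repressor that forms a complex with ATXN1, written as TGAATGAA, TGAATGGA, TCAATGAA or TCAATGGA on either strand. Of 32851 promoters of this length in the table, 1260 (3.84%) held a match. The table matched 7 of the 9 members, with 12 promoters, and 0 of these held one, so nothing above is in capitals. The G and C bases made up 61.3% of the Cntn2 window and 63.7% of the Cntn5 window.

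Each member had its own distribution over the cerebellar cell types, and these levels are a description, because the labels were assigned from the same nuclei. The map of mean levels shows that, among the 13 labels, Cntn1 peaked in astroglia, Cntn2 in OL, Cntn3 in PCs, Cntn4 in Cadm1 interneurons, Cntn5 in Nrgn neurons, Cntn6 and Cntnap1 in granule neurons, and Cntnap2 and Cntnap4 in Sln neurons.

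**Figure D1:**
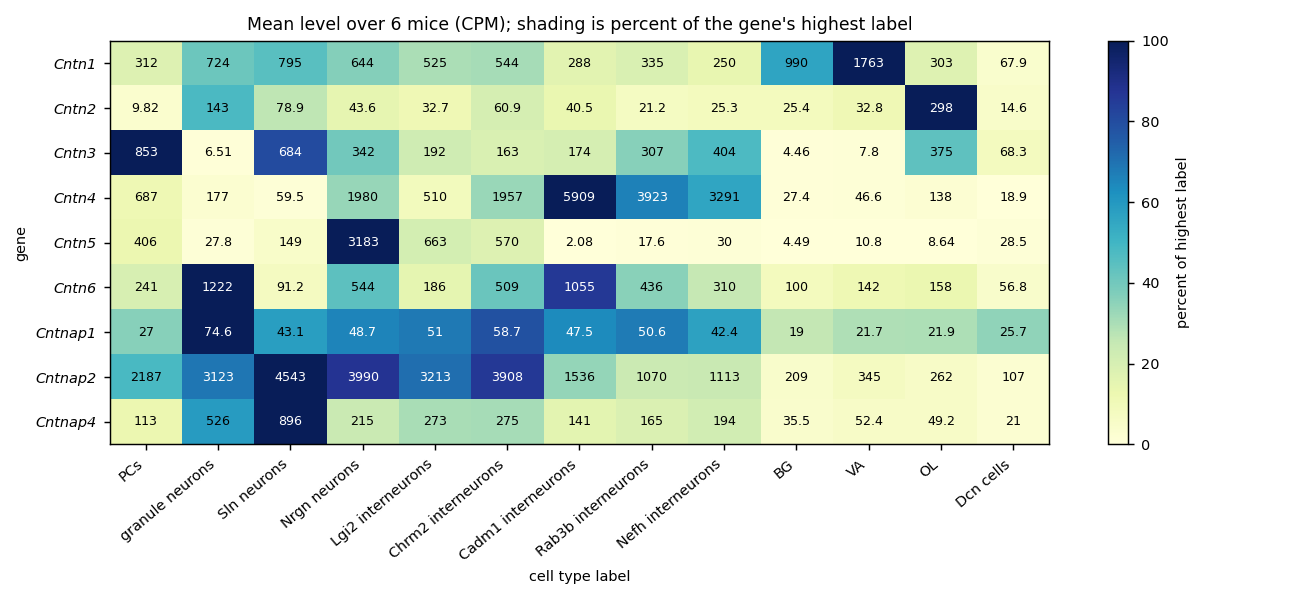
Mean level of each gene (rows) in each cell type label (columns) over 6 mice, printed in CPM and shaded as a percent of that gene's highest label. Cntn1 peaks in VA at 1763, Cntn4 in Cadm1 interneurons at 5909 and Cntn5 in Nrgn neurons at 3183, and Cntn3 is at 6.51 in granule neurons.

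Cntn1, the axonal partner of Cntnap1, was highest in VA among the 13 labels. A smaller label, polydendrocyte, with 12 nuclei in all mice together, was higher at 3041 CPM, above the highest VA mouse. The VA levels were 1373, 1558 and 2402 CPM in SCA1 mice 1 to 3 and 1251, 1625 and 2372 in WT mice 1 to 3, the order kept in all that follows. BG followed at 990 ± 266 (SD, n = 6), below VA in every mouse, although the ranges over mice overlapped. Granule neurons had 724 ± 196, Sln neurons 795 ± 233 and Nrgn neurons 644 ± 99.2, an order in which neighbors overlapped. PCs were among the low neurons at 312 ± 47.9. Dcn cells, at 67.9 ± 46.6, lay below all other labels in all 6 mice.

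Cntn2, known as TAG-1, was highest in OL and second in granule neurons. OL had 296, 257 and 289 CPM in SCA1 and 283, 333 and 331 in WT. In granule neurons the SCA1 values were 156, 123 and 141 and the WT values 148, 142 and 148. The groups of 6 values did not overlap, and the OL mean was 2.09 times the granule neuron mean. Sln neurons came next at 78.9 ± 30.7, again with no overlap with granule neurons. The lowest mean was in PCs, 9.82 ± 8.67.

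Nuclei with the OL label were not uniform in this family. In 74 of the 1384 nuclei, from Seurat clusters whose summed counts of the precursor genes Pdgfra, Cspg4 and Vcan exceeded those of the myelin genes Mog, Mobp and Mag, Cntn1 stood at 1680 ± 434 and Cntn4 at 1122 ± 430 CPM over the 6 mice. In the 1310 remaining nuclei Cntn1 was at 166 ± 74.7 and Cntn4 at 33.4 ± 18.1. Cntn2 ran the other way, with 27.8 ± 32.6 in the precursor clusters and 324 ± 25.1 in the myelin clusters, and Cntn3 had 124 ± 61.9 and 397 ± 136. Cntn6 was higher in the precursor clusters, at 438 ± 29.6 against 131 ± 27.5. All 6 mice had both kinds of nuclei, and for these 5 genes no mouse of one kind fell within the range of the other. This split was made after the values were seen and without TMM scaling.

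Cntn3 was highest in PCs, the only output neurons of the cerebellar cortex. The SCA1 PCs had 591, 806 and 953 CPM and the WT PCs 709, 973 and 1087. Sln neurons, at 684 ± 199, were below PCs in 5 of 6 mice, so the order of these labels was not clear of the spread. Nefh interneurons had 404 ± 161 and OL 375 ± 134. Granule neurons had 6.51 ± 2.74, VA 7.80 ± 6.22 and BG 4.46 ± 3.27, all below the lowest mouse of every other label except WT mouse 2 of the Chrm2 interneurons, which had 5.35. An antisense gene, 4930587E11Rik, lies inside Cntn3 on the opposite strand, and where the pair overlaps its reads are told apart by strand alone.

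Cntn4, an axon guidance contactin that binds App, was a gene of molecular layer interneurons. Cadm1 interneurons had 3581, 5897 and 7732 CPM in SCA1 and 3866, 4727 and 9649 in WT. Rab3b interneurons had 3923 ± 1149 and Nefh interneurons 3291 ± 1046, and in each mouse the level fell in that order although the ranges overlapped. Nrgn neurons had 1980 ± 692 and Chrm2 interneurons 1957 ± 935. PCs (687 ± 194) and Lgi2 interneurons (510 ± 214) were lower than those 5 labels in all mice, and both were above granule neurons (177 ± 38.6) in all mice. After each nucleus was thinned to 1000 UMIs, 98.4% of Cadm1 interneuron nuclei still had a Cntn4 UMI, against 11.5% of granule neuron nuclei.

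Cntn5 marked the Nrgn neurons. Their levels were 2523, 3478 and 3849 CPM in SCA1 mice and 2419, 1384 and 5447 in WT mice, and the lowest of these was above every mouse of every other label. The mean was 4.80 times that of the next label, Lgi2 interneurons, at 663 ± 87.4. Chrm2 interneurons had 570 ± 182 and PCs 406 ± 203. The Chrm2 level rested on few nuclei, the richest of which held 9.17% to 98.4% of a mouse's Cntn5 UMIs. A Cntn5 UMI was seen in 23.0 ± 13.8% of Chrm2 interneuron nuclei and 58.7 ± 19.5% of PC nuclei, before thinning. In Cadm1 interneurons, where Cntn4 was highest, Cntn5 was at 2.08 ± 2.29 and no thinned nucleus had a UMI (0%), against 75.0% of Nrgn neuron nuclei and 27.5% of PC nuclei.

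Cntn6, a contactin described at parallel fiber synapses, was highest in granule neurons, whose axons are the parallel fibers. They had 890, 1176 and 1532 CPM in SCA1 mice and 885, 1154 and 1695 in WT mice. Cadm1 interneurons were close behind at 1055 ± 305, lower in 6 of 6 mice with overlapping ranges. PCs, the target of those synapses, had 241 ± 47.4.

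Cntnap1, the paranodal Caspr, was at a low level in all labels, from 74.6 ± 8.66 CPM in granule neurons to 19.0 ± 7.97 in BG. PCs had 27.0 ± 11.9, lower than all other neuron labels in mean. Of its 12 neighboring pairs in the order of labels, all overlapped.

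Cntnap2, the juxtaparanodal Caspr, was broadly neuronal. The means ran from 4543 ± 1474 CPM in Sln neurons, through 3990 ± 954 in Nrgn neurons, 3908 ± 991 in Chrm2 interneurons, 3213 ± 872 in Lgi2 interneurons and 3123 ± 1032 in granule neurons, to 2187 ± 790 in PCs and 1070 ± 219 in Rab3b interneurons, with overlap between all neighbors. The gap came below that, with VA at 345 ± 100 and no overlap.

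Cntnap4, a presynaptic Caspr, was highest in Sln neurons at 852, 676 and 1105 CPM in SCA1 mice and 657, 867 and 1219 in WT mice. Granule neurons had 526 ± 175, lower in every mouse with overlapping ranges, and the other neuron labels lay between 113 ± 27.7 in PCs and 275 ± 55.8 in Chrm2 interneurons.

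**Figure D2:**
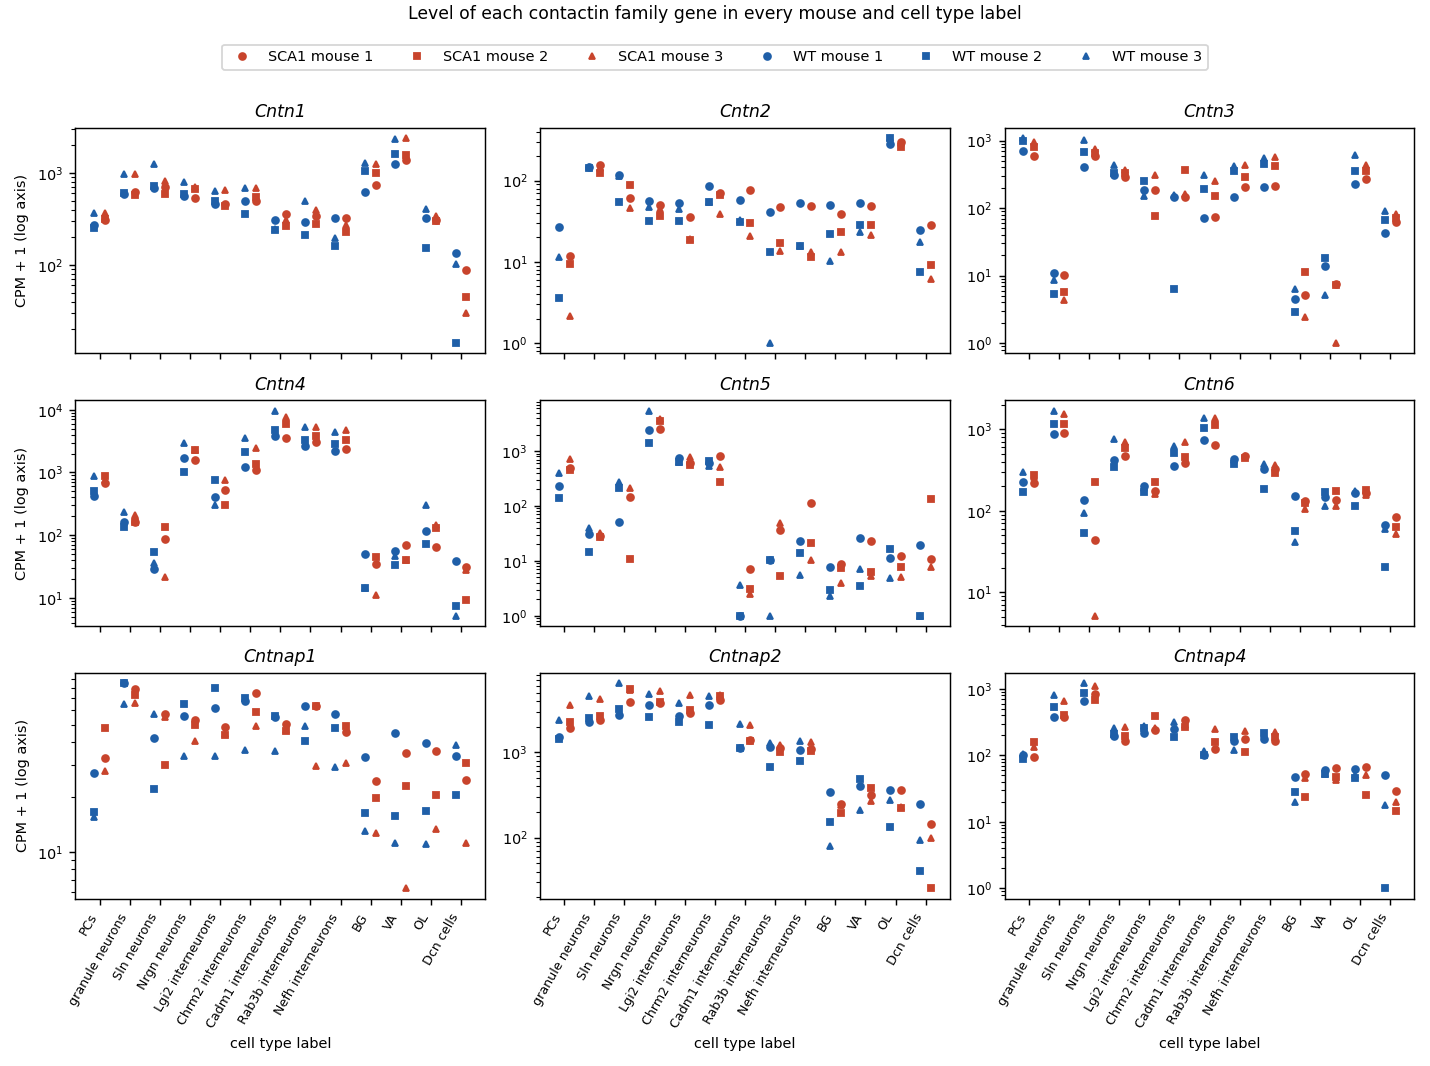
Level of each gene (CPM plus 1, log axis) in every mouse and cell type label, with SCA1 mice in red and WT mice in blue and a symbol for each mouse number. For most genes the labels differ far more than the genotypes do, and in Cntn4 and Cntnap2 mouse 3 of both genotypes sits above mouse 1 in most neuron labels.

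Granule neurons made up most nuclei, and their transcripts also appeared in glia. Gabra6, a granule neuron gene, was found in BG at 15.1 ± 9.76% of its granule neuron level, in VA at 19.3 ± 9.78% and in OL at 19.3 ± 11.6%, and Fat2 at 11.5 ± 8.87%, 18.2 ± 6.42% and 15.3 ± 7.57%. The same ratio was 9.33 ± 5.69%, 12.5 ± 4.30% and 13.7 ± 4.21% for Cntn6, 7.67 ± 4.57%, 12.6 ± 5.96% and 9.27 ± 4.92% for Cntnap2, and 7.69 ± 4.46%, 11.1 ± 4.48% and 10.3 ± 5.16% for Cntnap4. These means were below those of Gabra6 and Fat2 in each of the 3 glial labels. The OL precursor clusters were an exception for Cntn6, at 37.1 ± 4.70% (30.3% to 42.8%) beside Gabra6 at 7.67 ± 8.35% (0% to 18.7%), without TMM scaling. The source of the glial UMIs of these members was not tested. Cntn1 was far above Gabra6 and Fat2 in BG, at 139 ± 28.7%, and VA, at 244 ± 23.6%. In OL it was at 42.8 ± 11.3%, a range that overlapped that of Gabra6, and in the OL nuclei of myelin clusters at 24.3 ± 12.6% beside Gabra6 at 20.2 ± 11.3% (no TMM scaling), while in the precursor clusters it was at 234 ± 29.8%. The mean of Cntnap1 was also above those of Gabra6 and Fat2 in all 3 glial labels, with mice at 17.9% to 38.8% in BG beside Gabra6 at 5.86% to 30.3%, and means of 28.1 ± 17.3% in VA and 28.6 ± 13.7% in OL, with ranges that overlapped those of Gabra6. In PCs Gabra6 was at 4.70 ± 4.29% and Fat2 at 4.28 ± 3.05%, below Cntn6 (20.4 ± 4.43%), Cntnap1 (36.6 ± 16.7%), Cntnap2 (70.8 ± 14.5%) and Cntnap4 (23.4 ± 9.36%).

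The genes whose levels were most like each member over the 13 labels were taken by Pearson's r of log2(mean + 1) among 7066 genes, as a description with no test. Cntn3 was closest to 4930587E11Rik, its antisense gene (r = 0.99). Cntn5 was closest to another gene of the family, Cntnap5a (r = 0.94), and to Epha6 (r = 0.92). Cntn1 was closest to Kcnj3 (r = 0.91), Cntn2 to Pcbp4 (r = 0.94), Cntn4 to Cdkl1 (r = 0.96), Cntn6 to Gnptg (r = 0.91), Cntnap1 to Mphosph9 (r = 0.96) and Cntnap4 to Igsf9b (r = 0.97). Between members the highest value was that of Cntnap2 with Cntnap4 (r = 0.92) and the lowest that of Cntn1 with Cntn3 (r = -0.42). These points share libraries and depth.

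The spread between mice had a pattern of its own, which went with mouse number and was shared by both genotypes. Each mouse is 1 library, so mouse and library cannot be told apart, and no test was run on the counts that follow. For Cntn1, mouse 3 was the highest mouse of both genotypes in 10 of 13 labels, for Cntn3 and Cntnap2 in 8, for Cntn4 in 7, for Cntn6 in 5 and for Cntn5 and Cntnap4 in 4. The last members were mixed: Cntn5 was lowest in mouse 3 of both genotypes in 3 labels, and Cntnap4 was highest in mouse 1 of both in 4. For the short members it differed: mouse 3 was in no label the highest of both genotypes (0 of 13), Cntn2 was highest in mouse 1 of both genotypes in 10 labels, and Cntnap1 was lowest in mouse 3 of both genotypes in 8. In granule neurons, Cntnap2 had 2379, 2672 and 4249 CPM in SCA1 mice 1 to 3 and 2277, 2540 and 4622 in the WT mice. Mouse 3 thus differed from mouse 1 in each genotype while the genotypes overlapped.

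Gene span moved with this pattern over all genes. Among 11058 genes with at least 5 CPM in granule neurons, the median log2 ratio of mouse 3 to mouse 1 was -0.10 in SCA1 and -0.14 in WT for genes under 50 kb, and 0.55 and 0.68 for genes over 500 kb. The Spearman correlation across genes was 0.51 in SCA1 and 0.55 in WT. Genes are not independent replicates, and no p is given. In PCs the corresponding medians were -0.23 and -0.31, and 0.44 and 0.65, over 10425 genes. Cntn3 in granule neurons, at 3.37 to 9.87 CPM, went against its span, at -1.22 and -0.34. The mouse 1 libraries are taken to be the first of 2 sequencing runs and mice 2 and 3 of each genotype to share the second. In granule neurons mouse 2 lay nearer to mouse 1 than to mouse 3 for Cntnap2, so the higher level of mouse 3 was also seen within the second run. What sets the mouse 3 libraries apart was not tested.

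**Figure D3:**
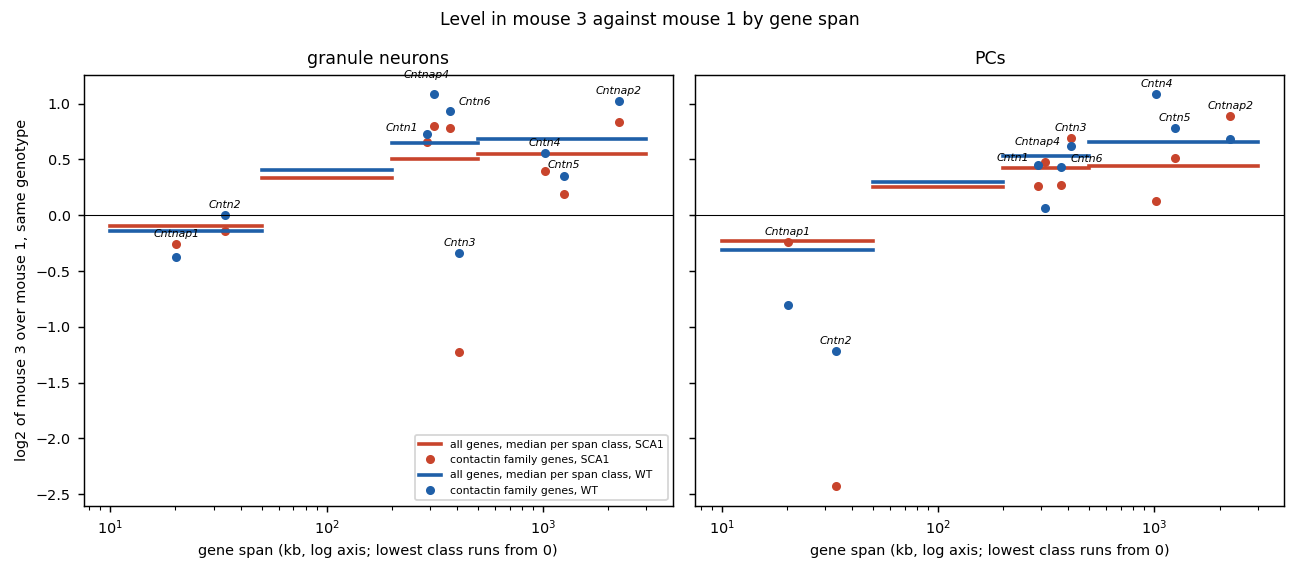
Log2 ratio of the level (plus 1) in mouse 3 to that in mouse 1 of the same genotype against gene span (kb, log axis), in granule neurons and PCs. Horizontal lines are medians over all genes of a span class and points are the family genes; both genotypes rise from about -0.10 and -0.14 under 50 kb to 0.55 and 0.68 over 500 kb in granule neurons.

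The transgene is directed to PCs, and the comparison of SCA1 with WT asked in which cell types the family's levels differed. In the main test no member was called in any label. In 4 pairs of member and label the mice of the genotypes did not overlap on the TMM scale, and the largest fitted differences among these 4 were in PCs, where 10.1% of all genes tested were split in this way. There Cntn5 had a mean of 556 CPM in SCA1 and 255 in WT and Cntnap1 35.3 and 18.8, and neither passed the test across all genes. Of 117 member and label pairs, 112 passed the filter on low counts. The 5 that did not were Cntn2 and Cntn5 in Dcn cells, Cntn3 in BG, Cntn5 in Cadm1 interneurons and Cntnap1 in Sln neurons. With edgeR's quasi-likelihood test, a batch term and Benjamini-Hochberg adjustment over all genes of the label, 0 of the 112 reached an adjusted p of 0.05, and the smallest adjusted p was 0.37. At an unadjusted p under 0.05 there were 6, of which 5 were higher in SCA1. DESeq2 and limma-trend also called 0, with 5 and 7 under that unadjusted limit. Over all genes tested, edgeR put 720 of 10517 in PCs and 120 of 9127 in Lgi2 interneurons under it. The 6 pairs lay in these labels and in Cadm1, Nefh and Rab3b interneurons, whose counts over all genes are not given here. In labels that held none of the 6, edgeR put 213 of 11752 in BG, 123 of 11193 in VA and 181 of 8244 in Dcn cells under it. DESeq2 put 118, 48 and 80 there, and limma-trend 263, 137 and 175.

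Few genes of any kind were called by this test. The share of all tested genes called was 0.00547% in granule neurons, 0.00866% in OL and 0% in each of the other 11 labels. The direction of the fitted differences was split, with 58 pairs above and 54 below 0. In PCs 7 of 9 members were above 0, with a median of 0.37 against 0.02 over all genes. In Rab3b interneurons 9 of 9 were above 0 (median 0.13), and 8 with DESeq2's size factors. In granule neurons 1 of 9 was (median -0.05), and 4 with library size alone. Some members there lay close to 0, such as Cntn1 at -0.002 and Cntn4 at -0.0008, so that count depended on the scaling. In PCs the count was 7 under each scaling.

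**Figure D4:**
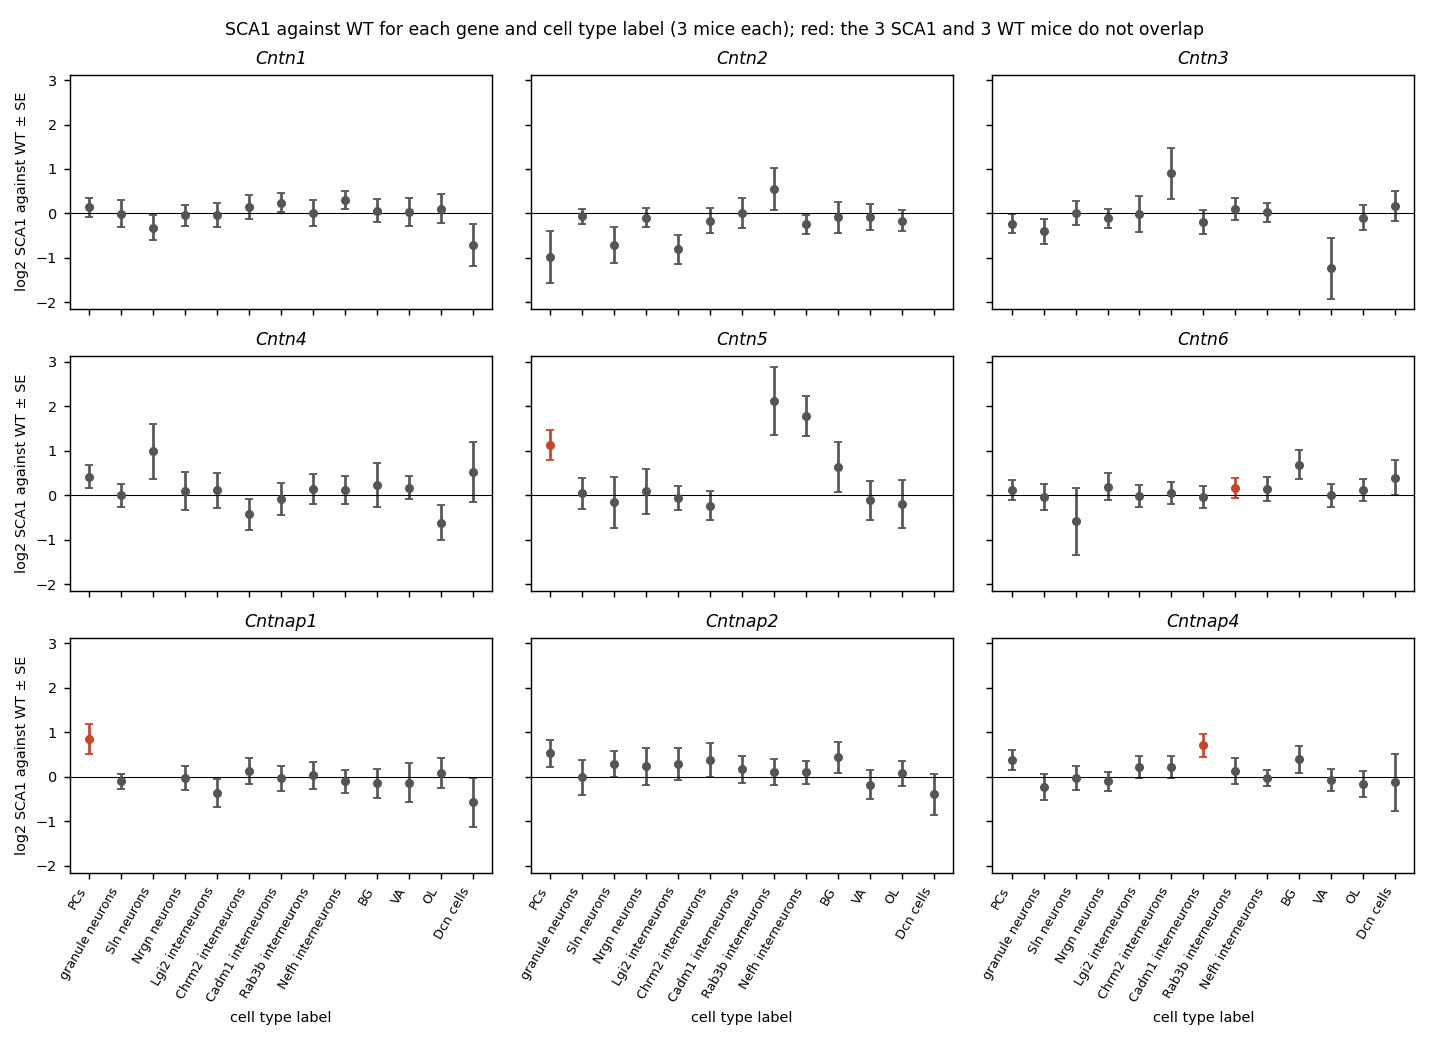
Fitted log2 difference between SCA1 and WT (± SE, 3 mice of each genotype) for each gene in each cell type label that passed the filter, with red points where the 3 SCA1 and 3 WT mice did not overlap on the TMM scale. Those are Cntn5 and Cntnap1 in PCs, Cntn6 in Rab3b interneurons and Cntnap4 in Cadm1 interneurons, of which Cntnap1 and Cntn6 overlap with library size alone.

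In 4 of the 112 pairs (3.57%) the SCA1 mice all lay on one side of the WT mice, each time above. Over all tested genes such a split, in either direction, was seen in 10.1% in PCs, 5.56% in Cadm1 interneurons, 5.04% in Rab3b interneurons, 3.3% in granule neurons, 3.49% in OL, 3.88% in Nefh interneurons, 4.65% in VA, 4.72% in BG, 5.39% in Nrgn neurons, 5.53% in Dcn cells, 5.74% in Lgi2 interneurons, 6.62% in Chrm2 interneurons and 6.71% in Sln neurons. Pooled over the labels, the share among the members was thus near these shares. In PCs 2 of the 9 members were split, too few to compare with the 10.1% there. Which pairs did not overlap depended on the scaling. With library size alone they were 5. Cntn5 in PCs and Cntnap4 in Cadm1 interneurons stayed, and Cntn1, Cntnap2 and Cntnap4 in PCs came in. Cntnap1 in PCs and Cntn6 in Rab3b interneurons overlapped. In PCs 4 of 9 members were then split, beside 14.2% of all genes. This check of the overlap was added after the values were seen.

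Cntn5 in PCs was 499, 457 and 713 CPM in SCA1 mice 1 to 3 and 229, 142 and 394 in WT mice 1 to 3. The lowest SCA1 mouse was above the highest WT mouse, WT mouse 3. The means were 556 ± 137 (SD, n = 3) and 255 ± 128 (SD, n = 3). The edgeR difference was log2 1.12 ± 0.34 (SE), with an adjusted p of 0.37. Within the first run it was 1.12 and within the second 1.13. Blocking on mouse number (a replicate block) gave 1.20, with an adjusted p of 0.0072, and Cntnap2 in PCs was then called too (edgeR, log2 0.53, adjusted p of 0.048). Over all genes in PCs the block called 1.75%, 45 higher and 139 lower, against 0 in the main test. Without 1 nucleus of SCA1 mouse 3 that held 34.1% of that mouse's Cntnap2 UMIs, the blocked adjusted p of Cntnap2 was 0.29 (edgeR, log2 0.36), and that of Cntn5 was 0.0060. In PCs the deviations of same-numbered mice correlated at 0.67 for number 1, 0.50 for number 3 and 0.07 for number 2. Of the 6 mice, 5 correlated best with their own number. These values do not settle whether the number pairs the mice, and the labels do not say. The main test therefore kept the batch term alone. Without the filter on low counts the adjusted p of Cntn5 was 0.0016, and 1.04% of all genes were called. With library size alone the difference was 1.32, but the median of all genes in PCs then stood at 0.20.

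The share of PC nuclei with many Cntn5 UMIs was higher in SCA1 in mean but overlapped between genotypes. At least 10 were found in 41 of 65, 13 of 52 and 21 of 29 PC nuclei of the SCA1 mice and in 26 of 76, 5 of 41 and 10 of 29 of the WT mice. SCA1 mouse 2 lay below WT mice 1 and 3. Depth differed with it, since the median PC nucleus had 16186 UMIs in the second SCA1 mouse and 18903 in the second WT mouse but 40007 to 58288 in the other 4 mice. Its part in these shares was not tested. The richest nucleus held between 6.68% and 23.9% of a mouse's Cntn5 UMIs. Nuclei with at least 10 Cntn5 UMIs had the PC genes Pcp2, Calb1, Ppp1r17, Car8 and Itpr1 at 10628 to 18532 CPM in sum, and those with none at 11850 to 19280. Slc17a6, which is part of the name of the Nrgn neurons' label, was at 0 to 11.8 in the former and 0 to 16.5 in the latter. Its level in Nrgn neurons is not given here.

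**Figure D5:**
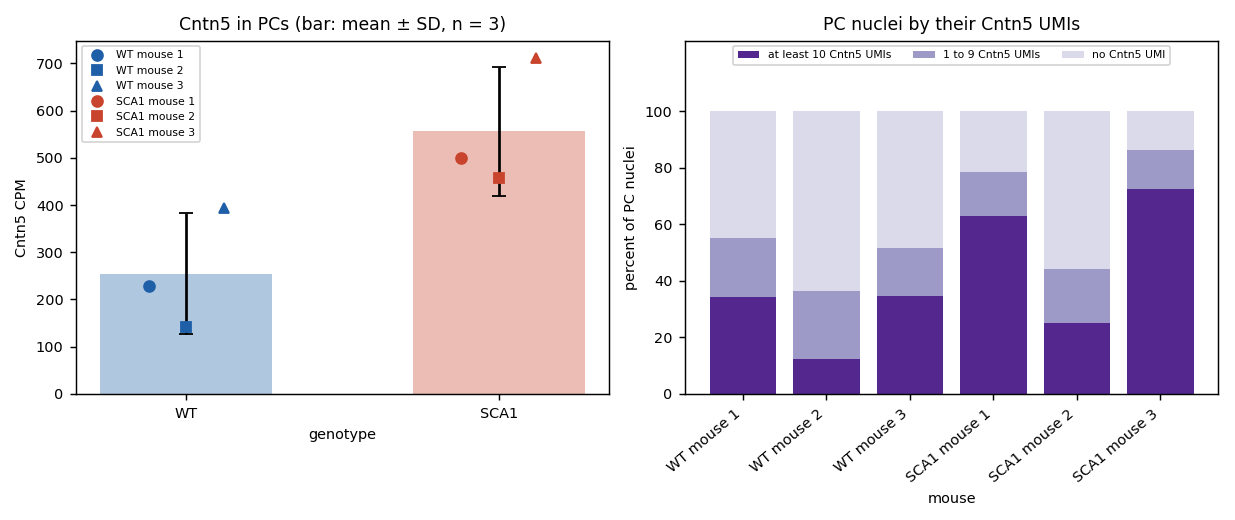
Left, Cntn5 level in PCs (CPM) per mouse with the mean ± SD of 3 mice of each genotype; right, percent of PC nuclei with at least 10, 1 to 9 or no Cntn5 UMIs in each mouse. The SCA1 mice sit at 457 to 713 and the WT mice at 142 to 394, and mouse 2 of each genotype has the fewest nuclei with at least 10.

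A UMI of human ATXN1 was seen in 10, 10 and 11 PC nuclei of SCA1 mice 1 to 3. Cntn5 was at 845, 566 and 427 CPM (no TMM scaling) in these nuclei and at 518, 463 and 873 in the 55, 42 and 18 without such a UMI. It was higher with the UMI in mice 1 and 2 and lower in mouse 3. Of the 9 members, 3 were higher with the UMI in all 3 mice: Cntn1 (387, 372 and 415 against 342, 324 and 317), Cntn4 (1074, 1182 and 924 against 733, 863 and 607) and Cntnap1 (54.3, 65.5 and 33.2 against 33.2, 44.3 and 21.8). Only Cntn3 was lower in all 3, at 529, 765 and 671 against 709, 921 and 1103. Over 10821 genes, 22.1% were higher and 9.66% lower in all 3 mice, so such counts are read against a high background. In mouse 2 the nuclei with the UMI were deeper, at a median of 34275 against 7288 UMIs, and its part in these differences was not tested. The Cntnap2 level of 5929 with the UMI in mouse 3 rested on 1 nucleus that held 2090 of 4111 UMIs.

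Cntnap1 in PCs was 32.0, 47.0 and 27.0 CPM in SCA1 mice and 26.1, 15.6 and 14.6 in WT mice. SCA1 mouse 3 was above WT mouse 1 only after TMM scaling, since by library size alone they had 26.3 and 26.8 CPM, and each value rested on 12 to 93 UMIs. The edgeR difference was log2 0.86 ± 0.33 (SE), with an adjusted p of 0.59. It was 0.29 within the first run and 1.29 within the second.

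The other long neuronal members in PCs overlapped between genotypes on the TMM scale. Cntnap2 was 1939, 2244 and 3594 in SCA1 and 1498, 1444 and 2406 CPM in WT mice, a difference of log2 0.53 ± 0.30 with an edgeR adjusted p of 0.88. In SCA1 mouse 3, 1 of 29 nuclei held 2090 of the 6133 Cntnap2 UMIs, and without it that mouse was at 2425 in place of 3511 CPM (no TMM scaling) and the difference at log2 0.33 ± 0.28 (edgeR, adjusted p of 0.98). Cntn4 was 688, 889 and 751 against 414, 504 and 878 (log2 0.41 ± 0.26, edgeR adjusted p of 0.93). Cntn3, the member whose highest label was PCs, was lower in SCA1 by 0.24 ± 0.21 on the log2 scale, within the spread (adjusted p of 1.00 with edgeR).

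Cntnap4 in Cadm1 interneurons was 123, 159 and 250 CPM in SCA1 mice and 100.1, 99.5 and 117 in WT mice, which left SCA1 mouse 1 only just above WT mouse 3. The edgeR difference was log2 0.71 ± 0.27 (SE), with an adjusted p of 1.00. Within runs it was 0.29 and 0.91. Cntn6 in Rab3b interneurons was 467, 446 and 470 in SCA1 and 436, 371 and 426 in WT mice, a difference of log2 0.17 ± 0.22 (edgeR, adjusted p of 1.00), and 0.10 and 0.20 within runs. With library size alone its genotypes overlapped, since SCA1 mouse 3 had 440.1 and WT mouse 1 459 CPM.

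The largest fitted differences of the family were those of Cntn5 in Rab3b interneurons (log2 2.12 ± 0.76) and Nefh interneurons (log2 1.77 ± 0.45), labels in which it is scarce. Neither was called, and single nuclei held much of the count. In Nefh interneurons the levels were 111, 19.9 and 9.25 CPM in SCA1 and 22.0, 13.2 and 4.51 in WT mice, which overlap. In SCA1 mouse 1, 1 of 314 nuclei held 228 of the 504 UMIs. In Rab3b interneurons 1 nucleus held 34 of 44 UMIs in SCA1 mouse 1 and another held all 30 in SCA1 mouse 3. This pair was called by edgeR when no low counts were filtered out (log2 2.15, adjusted p of 0.015), beside 0.041% of all genes in the label.

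In BG, VA and OL every member tested had overlapping genotypes. Cntn1 in VA differed by log2 0.04 ± 0.31 and in BG by 0.06 ± 0.26. Cntn2 in OL differed by -0.16 ± 0.24 and Cntn3 in OL by -0.10 ± 0.28, each with an edgeR adjusted p of 1.00.

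Whether a genotype difference was larger in 1 cell type than in granule neurons was tested with an interaction term. Here the filter on low counts was joint, over the sums of the label and of granule neurons. It let in the 5 pairs that had not passed in their own label. Of 108 pairs, edgeR called 0, with 8 under an unadjusted p of 0.05, and DESeq2 called 0, with 5. Those 8 lay in PCs, Sln neurons and the Chrm2, Cadm1, Lgi2 and Rab3b interneurons. Among all genes, edgeR put 205 of 17102 in BG, 254 of 16856 in VA and 356 of 17015 in Dcn cells under that limit. DESeq2 put 143, 151 and 212 there. Such counts for the labels that held the 8 are not given here, so the 8 are not read as a result. Over all genes the share called was 0.0318% in Sln neurons, 0.00606% in Cadm1 interneurons, 0.00583% in Chrm2 interneurons and 0% in the remaining 9 labels. The smallest adjusted p was that of Cntn5 in PCs, 0.57, for a difference of log2 1.02 ± 0.25. For Cntnap4 in Cadm1 interneurons it was log2 0.96 ± 0.23 (adjusted p of 0.76). Without WT mouse 1 edgeR called that pair (log2 1.18, adjusted p of 0.014), beside 0.758% of all genes. Cntn3 in Chrm2 interneurons was called without the filter on low counts, beside 0.0808% of all genes, and without SCA1 mouse 1, beside 0.0654%. Cntn5 in Rab3b interneurons was called without the filter, beside 0.0295%. In counts simulated with a log2 change of 1.5, edgeR's interaction test called 16.2% of the changed genes in PCs. Over the labels this ran from 3.06% in Sln neurons to 31.25% in Nrgn neurons. In the same kind of counts edgeR's main test called 78.5% of the changed genes in PCs. It tested 10376 genes there, against 16650 in the interaction, whose joint filter also let in genes scarce in the label. How often a difference of that size in a member would be called was not tested. A lack of calls is therefore not read as a lack of difference.

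No partner of the family was called either. A list of 20 genes held junction and adhesion partners (Nfasc, Nrcam, L1cam, Chl1, Ptprz1, Ptprg, App, Notch1, Tnr, Tnc, Adgrl1). It also held scaffolds and kinases (Epb41l3, Ank3, Dlg4, Fyn) and the potassium channel complex with its ligand (Kcna1, Kcna2, Kcnab2, Adam22, Lgi1). In PCs 18 were tested and 0 were called up or down by edgeR, with 1 under an unadjusted p of 0.05, and none separated the mice. Their median was -0.12 against 0.02 over all genes. Across the other labels 14 to 20 were tested and 0 were called. Of 232 partner and label pairs, 15 (6.47%) did not overlap between genotypes, 7 with SCA1 above and 8 with SCA1 below, within the range of the shares over all genes given above. The one with the smallest unadjusted p was Tnc in BG, where 4.72% of all genes did not overlap. Tnc, an extracellular matrix ligand and chosen here after its values were seen, was 74.6, 83.1 and 164 in SCA1 and 174, 332 and 476 CPM in WT BG, with no overlap (edgeR, log2 -1.54 ± 0.30, adjusted p of 1.00). Cntnap5a, Cntnap5b and Cntnap5c, the remaining Caspr genes measured in PCs, had 397 ± 59.9, 2279 ± 709 and 958 ± 256 CPM there, and their genotypes overlapped, with log2 differences of 0.08 ± 0.21, -0.30 ± 0.29 and -0.09 ± 0.24. Cntnap3 was not tested in PCs, where it was at or under 1.30 in every mouse.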

How the data were processed

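Nuclei of 6 cerebella were captured and made into libraries with 10x Genomics reagents and, per the study's methods, sequenced on the Illumina NovaSeq platform. Per the labels and the study's methods, the authors aligned reads with Cell Ranger (versions 4.0.0, 5.0.1 and 6.0.1 appear in the submitters' processing notes) to mm10 extended by the locus of human ATXN1, with introns included, removed debris and labelled nuclei with SingleR. The deposited values are UMI counts per gene and nucleus, fewer nuclei than the study's stated total. No doublet step is given in the sources used here and none was added. The batch term is inferred: mouse 1 of each genotype is taken as the first run, from library numbers in the labels and a higher UMI minimum (3890 and 3932 against 1000 to 1739).

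Counts were summed per mouse and SingleR label and tested with edgeR 4.0.16 (TMM, filterByExpr with minimum count 10 and total 15, genotype plus batch, Benjamini-Hochberg over all genes, threshold 0.05). DESeq2 1.42.0 and limma 3.58.1 were alternatives, run in R 4.3.3. Scripts were tested on simulated data. The study calls the controls littermates, but which mice shared a litter is not given in the sources used here. Members and lists were chosen with earlier results of these data known. All 9 members are described; 1 likeness result is not reported here. Full statistics are given where SCA1 and WT mice did not overlap, and for Cntn5 in PCs. The split of OL by cluster, the classes of PC nuclei and the account of gene span were added after the values were seen.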

Additional observations from a re-analysis of the deposited data

How the results depend on the processing

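Of 189 alternative fits of SCA1 against WT over the 13 labels, 186 called no member and 3 did, and of 114 alternative interaction fits 110 called none and 4 did. Without a filter on low counts, 1 member was called in PCs (Cntn5, adjusted p of 0.0016) and 1 in Rab3b interneurons (Cntn5, beside 0.041% of all genes), and in the interaction 1 in Rab3b interneurons (Cntn5, 0.0295%) and 1 in Chrm2 interneurons (Cntn3, 0.0808%). That setting tested 21377 genes in PCs against 10517. With the replicate number as a block (replicate block), 2 members were called in PCs, Cntn5 (log2 1.20, adjusted p of 0.0072) and Cntnap2 (log2 0.53, adjusted p of 0.048), and 0 in the other labels. Leaving out the PC nucleus with the most Cntnap2 UMIs, a choice made after seeing the data, ended the blocked call of Cntnap2 (edgeR adjusted p of 0.29) but not that of Cntn5 (0.0060). Deviations of same-numbered mice correlated at 0.47 to 0.87 for number 1 and 0.43 to 0.78 for number 3 but 0.04 to 0.30 for number 2. All 3 pairs were over 0.1 in 6 of 13 labels (granule neurons, VA and the Nefh, Rab3b, Lgi2 and Cadm1 interneurons), where the block called no member, and not in the other 7, PCs included. In each label 4 to 6 of 6 mice correlated best with their own number. The labels do not say what the number marks. Over all genes in PCs, DESeq2 called 14 higher and 51 lower, no filter 67 and 156, and the block 45 and 139, against 0 in the main test (720 under an unadjusted p of 0.05). When each mouse was left out in turn, members called ranged from 0 to 1 in the interaction for Cadm1 interneurons (1 without WT mouse 1, Cntnap4, adjusted p of 0.014, with 94 genes called higher and 28 lower, 0.758% of all genes, against 0 and 1 in the main test) and from 0 to 1 for Chrm2 interneurons (1 without SCA1 mouse 1, Cntn3, beside 0.0654% of all genes), and stayed at 0 elsewhere. In the fits of SCA1 against WT, leaving out 1 mouse of the first run lets the batch term absorb the other. The interaction fits have a term for each mouse and no batch term. Cntn5 in PCs stayed between log2 0.80 and 1.61, with adjusted p from 0.0016 to 1.00 over 15 alternatives. The interaction of Cntn6 in Rab3b interneurons reversed to -0.0065 without SCA1 mouse 1 and -0.0067 without WT mouse 3, and reached 0.50 without WT mouse 1. The number of members whose highest label lay clear of the next was 2, and 2 to 3 with a mouse left out. It was 5 when nuclei had to share their cluster's most frequent label, which left 7 labels. Nrgn and Sln neurons were not among the 7. Cntn5 was then highest in PCs, and Cntnap2 and Cntnap4 in granule neurons. With TMM over all labels together, an alternative chosen after seeing the data, Cntnap2 was highest in Nrgn neurons. WT mouse 2 had the lowest median, 2246.5 UMIs per nucleus.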

Other observations

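Labels with too few nuclei for a comparison between mice were summed over all mice in counts-per-million (CPM), with exact Poisson intervals that cover counting error only. In the 12 nuclei with the polydendrocyte label, a name for oligodendrocyte precursors, Cntn1 was at 3041 CPM (95% interval 2813 to 3281), with a UMI in all 12 nuclei and above the highest VA mouse (2402), and Cntn3 at 13.8 (2.84 to 40.3). In the 83 nuclei with the choroid plexus label Cntn1 was at 374 (336 to 415) and Cntn3 at 6.34 (2.33 to 13.8). In microglia nuclei Cntn1 was at 100.3 (76.9 to 129) and Cntnap2 at 141 (113 to 174), and in 136 nuclei with the endothelial stalk labels Cntnap2 was at 580 (539 to 622), well under its granule neuron level.

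Cntn3 in Chrm2 interneurons was 143, 366 and 161 CPM in SCA1 mice and 143, 5.35 and 157 in WT mice, so that both mouse 2 libraries lay apart from the others in opposite directions. Cntn2 in Lgi2 interneurons was the 1 pair lower in SCA1 at an unadjusted p under 0.05, at 17.6 to 34.6 in SCA1 against 30.6 to 52.1 in WT (edgeR, log2 -0.81 ± 0.33, adjusted p of 1.00), with overlapping mice.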
